A study of Mus musculus with 4 samples.

Results

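The expression of 9 genes of vitamin A storage, transport and metabolism was followed in the liver of male ob/ob mice, which lack leptin and become obese, by RNA sequencing. The genes were chosen by symbol, and all 9 (Rbp4, Ttr, Lrat, Rdh16, Dhrs3, Aldh1a1, Aldh1a7, Cyp26a1 and Rarb) were among the 24346 symbols listed in every library. From 6 weeks of age the mice were fed for 4 weeks, and each of the 4 groups was sequenced as 1 library. CD was a chow diet, CD+7KC was the same diet with 0.01% 7-ketocholesterol (7KC, an oxysterol formed when cholesterol is oxidised), WD was a high fat, high cholesterol diet rich in sucrose and cocoa butter, and WD+7KC was WD with 0.01% 7KC. By the study's methods each of these diets, the chow included, also held 1% cholesterol, so no group was free of added cholesterol. The vitamin A content of the diets and the number of mice behind a library are not given in the sources used here.

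The liver holds most of the body's vitamin A. Retinol is esterified by hepatic stellate cells and kept in their lipid droplets, and hepatocytes release it into the blood bound to retinol-binding protein and transthyretin. Inside the cell retinol is oxidised to retinal and then to retinoic acid, which binds nuclear receptors on target genes, and CYP26 enzymes break retinoic acid down. Several of the genes that store or remove retinoids are themselves known targets of retinoic acid.

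Levels are given in FPKM, the number of sequenced fragments of a gene scaled to the length of its transcript and to the depth of the library. With 1 library per group no spread between mice could be measured, so no test was possible, and every difference below is a difference between 2 libraries. A log2 fold change is that of FPKM + 0.1, and a gene is counted as past the fold when this exceeds 1 in either direction. The steps between low FPKM values gave an estimated depth of 9400000 to 12110000 fragments per library, from which a 95% counting interval of each log2 ratio was worked out (exact Clopper-Pearson). These intervals cover counting error only and hold nothing of the spread between mice. Each library's FPKM summed over all genes to 715605 (CD), 696062 (CD+7KC), 699534 (WD) and 602059 (WD+7KC). Rescaling the libraries to equal sums shifted the all-gene median of the log2 fold change by 0.21 in both comparisons that involve WD+7KC and by 0.04 or less in the others, and levels and orders below are those of the deposited scale unless equal sums are named.

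None of the 9 genes was past the fold when 7KC was added to WD, when 7KC was added to CD, or between WD and CD. Between WD+7KC and CD+7KC 1 of 9 was past it, namely Cyp26a1, which was lower. Of all genes detected (above 0 FPKM) in either library compared, 9.00% were past the fold for WD+7KC compared to WD, 6.75% for CD+7KC compared to CD, 9.69% for WD compared to CD and 12.6% for WD+7KC compared to CD+7KC. Among genes of at least 1 FPKM, as all 9 were in every library, these shares were 4.71%, 2.65%, 5.54% and 9.37%. The count of 1 in 9 is therefore near the background for genes of this level. The members' median log2 fold change was -0.18 for WD+7KC compared to WD, 0.16 for CD+7KC compared to CD, -0.03 for WD compared to CD and -0.30 for WD+7KC compared to CD+7KC, beside -0.03, -0.00, -0.01 and -0.02 over all genes of at least 1 FPKM. With equal sums the members' medians were 0.04, 0.20, 0.00 and -0.09, beside 0.19, 0.03, 0.03 and 0.19 over all genes of at least 1 FPKM. In both comparisons that involve WD+7KC the members' median thus lay below that of all genes on either scale. The comparisons share libraries and are not independent of each other.

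**Figure D1:**
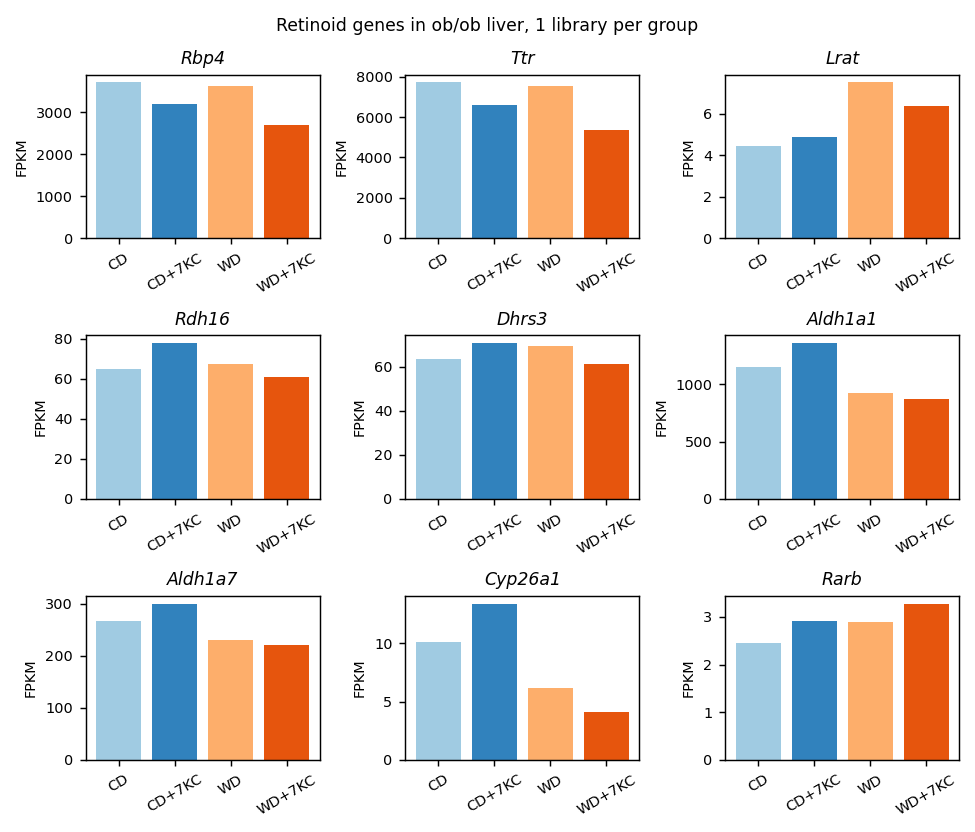
Level in FPKM (vertical axis, from 0, a scale of its own in each panel) of the 9 genes in the CD, CD+7KC, WD and WD+7KC libraries, 1 bar per library and no error bars since each group is 1 library. Cyp26a1 is at 13.4 (CD+7KC) and 4.11 (WD+7KC), Lrat is higher in both WD libraries, and Ttr and Rbp4 are lowest in WD+7KC.

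The blood carriers of retinol were the most abundant of these genes. Ttr, on chromosome 18, encodes transthyretin, which carries thyroxine and keeps the small retinol-binding protein from being filtered by the kidney. Its level was 7734 FPKM (CD), 6609 (CD+7KC), 7573 (WD) and 5385 (WD+7KC), and by its mean it ranked 10 among all genes. Rbp4 (chr19:38116629-38125281, GRCm38), which encodes the plasma retinol-binding protein made by hepatocytes, stood at 3718 FPKM (CD), 3203 (CD+7KC), 3625 (WD) and 2691 (WD+7KC), rank 23. The libraries came in the same order for both genes, with CD and WD nearly level at the top, CD+7KC next and WD+7KC lowest.

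Ttr differed by a log2 fold change of -0.49 between WD+7KC and WD (counting interval -0.51 to -0.48) and by -0.23 between CD+7KC and CD (-0.24 to -0.21). Rbp4 differed by -0.43 (-0.45 to -0.41) and -0.21 (-0.24 to -0.19) in the same comparisons. Both genes were thus lower in each 7KC library than in the library of the same diet without it, and both kept this direction with equal sums, at -0.28 and -0.21 in WD and -0.19 and -0.18 in CD. Between WD and CD they differed by only -0.03 for Ttr and -0.04 for Rbp4, and with equal sums Ttr turned to 0.00.

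The ratio of Ttr to Rbp4 hardly moved, at 2.08 (CD), 2.06 (CD+7KC), 2.09 (WD) and 2.0 (WD+7KC), the last with a counting interval of 1.97 to 2.03. The other 8 hepatocyte markers summed to 46373 FPKM (CD), 38800 (CD+7KC), 47627 (WD) and 38453 (WD+7KC). Most of this was Alb, which encodes albumin, at 35084, 31205, 35981 and 30014. Marker by marker, 7 of the 8 were lower in CD+7KC than in CD (median log2 fold change -0.18, or -0.14 with equal sums). For WD+7KC compared to WD 7 of the 8 were lower (median -0.19), but with equal sums 5 lay above and 3 below (median 0.03). The part of this shift in the levels of Ttr and Rbp4 was not tested. Relative to Alb, Ttr stood at 0.220 (CD), 0.212 (CD+7KC), 0.210 (WD) and 0.179 (WD+7KC), and Rbp4 at 0.106, 0.103, 0.101 and 0.0897. Both were thus lowest in WD+7KC relative to this 1 marker. No other marker was used in this way, and they did not all follow Alb. Apoa1, another of the 8, was at 7081 FPKM (CD), 4322 (CD+7KC), 8322 (WD) and 5501 (WD+7KC), lowest in CD+7KC. In summed FPKM, Ttr took 1.08% of the CD library and 0.894% of the WD+7KC library.

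Lrat (chr3:82892579-82903973) encodes lecithin-retinol acyltransferase, the enzyme that makes the retinyl esters stored in stellate cells. It was low in whole liver, at 4.46 FPKM (CD), 4.88 (CD+7KC), 7.52 (WD) and 6.36 (WD+7KC), which corresponds to an estimated 251 to 397 reads. Both WD libraries lay above both CD libraries. WD was higher than CD by a log2 fold change of 0.74 (0.52 to 0.99) and WD+7KC was higher than CD+7KC by 0.37 (0.16 to 0.61). WD+7KC was lower than WD, at -0.24 (-0.45 to -0.03), but with equal sums this was -0.03, with an interval of -0.23 to 0.18. CD+7KC and CD were not distinguishable at this depth (0.13, -0.12 to 0.38).

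Lrat is also a marker of stellate cells, and in whole liver more such cells and more RNA per cell cannot be told apart. The 14 other stellate cell markers summed to 257 FPKM (CD), 230.2 (CD+7KC), 272 (WD) and 262 (WD+7KC), and this sum had a narrower range than Lrat. Dcn was the largest part of the sum, at 139, 118, 145 and 137 FPKM in the same order. Single markers ranged from 1.13-fold (Reln) to 2.03-fold (Des) over the libraries, beside 1.69-fold for Lrat. For WD compared to CD, 11 of these 14 were higher and 3 lower, with a median log2 fold change of 0.17, and none was past the fold. Vipr1 was the marker closest to Lrat in size there, at 0.84 (0.63 to 1.08), whereas Reln, which encodes reelin, differed by -0.03 (-0.24 to 0.17). For WD+7KC compared to WD, 4 lay above and 10 below, and their median was -0.11, which equal sums reversed to 10 above and 4 below with a median of 0.09. Set against CD+7KC, the WD+7KC library had 12 of these 14 markers at a greater level and 2 at a smaller one. Their median log2 fold change there was 0.20, beside 0.37 for Lrat. Under equal sums the split was 13 to 1 and the median 0.41, beside 0.58 for Lrat. Gfap, another stellate marker, was at 0.0979 to 0.180 FPKM. The part of stellate cell number in the Lrat levels was not tested.

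Other cell types differed more between the libraries. The 12 macrophage and Kupffer cell markers summed to 236 FPKM (CD), 340.0 (CD+7KC), 375 (WD) and 687 (WD+7KC), and all 12 were higher in WD+7KC than in WD (median log2 fold change 0.91, 4 past the fold). The 8 sinusoidal endothelial markers summed to 66.7, 103, 55.5 and 157 FPKM in the same order, and 8 of 8 were past the fold between WD+7KC and WD. The 8 pericentral hepatocyte markers summed to 4042, 3526, 3114 and 2026 FPKM, but most of this was Cyp2e1, at 3444, 2778, 2585 and 1424. Counted by marker, 7 of the 8 were higher in CD+7KC than in CD (median 0.30), and for WD+7KC compared to WD 4 lay above and 4 below (7 and 1 with equal sums). The 8 periportal markers summed to 2983, 3326, 2929 and 2671 FPKM, of which 2 lay above and 6 below for WD+7KC compared to WD (5 and 3 with equal sums). For WD+7KC compared to CD+7KC, 2 pericentral markers lay above and 6 below (median -0.37, or -0.17 with equal sums). In that comparison 3 periportal markers lay above and 5 below (median -0.42, or -0.21 with equal sums). The lowest were at -1.56 (pericentral) and -1.59 (periportal). Of the 4 fat cell markers Plin1 and Lep were listed at 0 in every library and Adipoq was at 0.0885 FPKM or below, while Cfd was at 220.0 (CD), 63.2 (CD+7KC), 1.47 (WD) and 0.115 (WD+7KC). The part of these shifts in the levels of the retinoid genes was not tested.

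**Figure D2:**
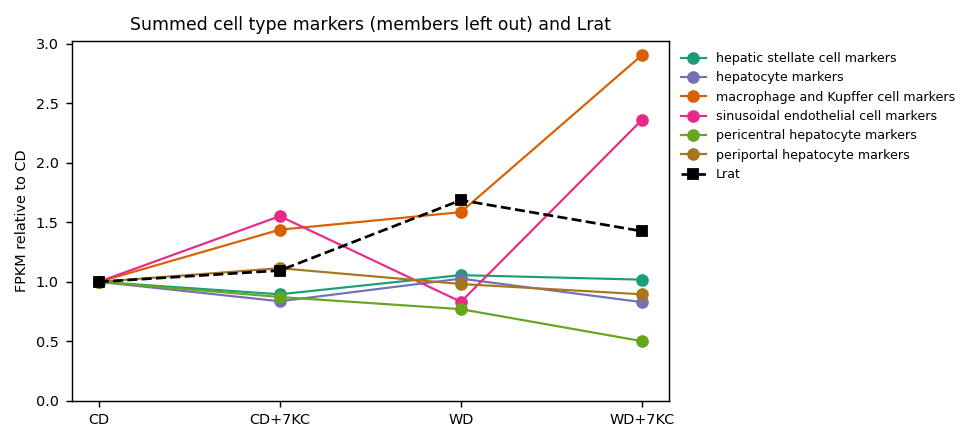
Summed FPKM of each list of cell type markers, members left out, divided by its value in CD (vertical axis, from 0), for the 4 libraries, with Lrat as the dashed line and squares. Lrat is at 1.69 times its CD level in WD, where the 14 stellate cell markers together stay near their CD level, and the macrophage and sinusoidal endothelial sums are highest in WD+7KC. The pericentral line is mostly Cyp2e1, the hepatocyte line is mostly Alb, and Dcn is the largest part of the stellate line.

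Retinol and retinal are interconverted by reductases and dehydrogenases, of which Rdh16 and Dhrs3 were followed. Rdh16 (chr10:127801152-127846565), an oxidising retinol dehydrogenase, stood at 64.9 FPKM (CD), 77.7 (CD+7KC), 67.2 (WD) and 60.6 (WD+7KC). Dhrs3 (chr4:144892827-144928209), which reduces retinal back to retinol and is known as a retinoic acid target, stood at 63.4, 70.8, 69.5 and 61.4 FPKM. On the deposited scale both were highest in CD+7KC and lowest in WD+7KC, although for Dhrs3 the WD+7KC and CD libraries did not differ beyond counting error. As a share of summed FPKM both were lowest in CD, with Rdh16 still highest in CD+7KC (0.0112%) and Dhrs3 at 0.0102% in both 7KC libraries. The range was narrow, 1.28-fold for Rdh16 and 1.15-fold for Dhrs3.

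Rdh16 was higher in CD+7KC than in CD by a log2 fold change of 0.26 (0.18 to 0.34), and Dhrs3 by 0.16 (0.06 to 0.26). In WD the signs were the other way, -0.15 (-0.24 to -0.06) for Rdh16 and -0.18 (-0.28 to -0.08) for Dhrs3 when WD+7KC was compared to WD, but with equal sums they turned to 0.07 and 0.04. For WD compared to CD, Dhrs3 was higher by 0.13 (0.03 to 0.24) and the interval of Rdh16 included no difference (0.05, -0.04 to 0.14). For WD+7KC compared to CD+7KC, Rdh16 was lower, at -0.36 (-0.44 to -0.28), and so was Dhrs3, at -0.21 (-0.31 to -0.11), and with equal sums Dhrs3 was at 0.00.

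Rdh16 lies in a cluster of near copies, and its reads cannot be fully separated from theirs. Rdh9, its nearest copy, was identical to it at 96.3% of 954 coding bases, and 642 of 3133 windows of 75 bases, the read length, in the Rdh16 transcript (20.5%) matched Rdh9 with at most 2 mismatches. Its levels followed another order. Rdh9 was at 18.2 FPKM (CD), 26.6 (CD+7KC), 62.9 (WD) and 53.0 (WD+7KC), so the ratio of Rdh16 to Rdh9 was 3.58 (CD), 2.92 (CD+7KC), 1.07 (WD) and 1.14 (WD+7KC). Rdh9 was past the fold for WD compared to CD, with a log2 fold change of 1.79 (1.64 to 1.94). The level of Rdh16 is uncertain to the extent that reads of Rdh9 were counted to it.

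Aldh1a1 and Aldh1a7 are neighbours on chromosome 19 (chr19:20492715-20643465 and chr19:20692953-20727562). Aldh1a1 encodes the main cytosolic enzyme that oxidises retinal to retinoic acid, and Aldh1a7 is its rodent copy, whose activity on retinal is less clear. The stretches just upstream of a RefSeq start of each are shown since they show how alike the copies are. Aldh1a1 has 2 such starts, and the one used, chr19:20601968, is the one further downstream. It lies inside the annotated gene, whose longest form begins further upstream. From 130 to 12 bases before the start (RefSeq, GRCm38, Aldh1a1 on the plus strand at chr19:20601838-20601956, Aldh1a7 on the minus strand at chr19:20727568-20727686) 94 of 119 positions were identical (79.0%), and the capitals mark the 65 bases in a row that both share:
Aldh1a1: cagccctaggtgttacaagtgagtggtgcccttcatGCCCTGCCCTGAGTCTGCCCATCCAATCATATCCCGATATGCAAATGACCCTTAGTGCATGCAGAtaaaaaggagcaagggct
Aldh1a7: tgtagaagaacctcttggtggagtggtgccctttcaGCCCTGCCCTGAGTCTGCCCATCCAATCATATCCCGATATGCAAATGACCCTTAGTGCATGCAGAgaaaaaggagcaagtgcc

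Their coding sequences, of 1506 bases each, were identical at 91.6% of positions. Of 1992 windows of 75 bases in Aldh1a7, 337 (16.9%) matched Aldh1a1 with at most 2 mismatches. Reads from such windows could have been given to either gene, and how many were was not measured. Aldh1a1 was at 1152 FPKM (CD), 1361 (CD+7KC), 927 (WD) and 877 (WD+7KC). Aldh1a7 was at 267, 299, 229 and 219.95 FPKM. In both genes the libraries came in the order CD+7KC, CD, WD, WD+7KC from high to low, with WD and WD+7KC changing places under equal sums. The ratio of Aldh1a1 to Aldh1a7 stayed between 3.99 (WD+7KC) and 4.55 (CD+7KC). The levels of Aldh1a7, the less abundant copy, and the shared order are uncertain to the extent that reads of Aldh1a1 were counted to Aldh1a7.

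Addition of 7KC to CD went with higher levels of both, by a log2 fold change of 0.24 (0.22 to 0.27) for Aldh1a1 and 0.16 (0.11 to 0.22) for Aldh1a7. Addition of 7KC to WD went with differences of -0.08 (-0.11 to -0.05) and -0.06 (-0.12 to just below 0), which turned to 0.14 and 0.16 with equal sums. WD was lower than CD, at -0.31 (-0.34 to -0.28) for Aldh1a1 and -0.22 (-0.28 to -0.16) for Aldh1a7. The difference between the diets was wider with 7KC in both, at -0.63 (-0.66 to -0.61) and -0.44 (-0.50 to -0.39), and with equal sums these were -0.42 and -0.23.

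Cyp26a1 and Rarb are the classical responsive genes of the set, and the sequence just before their starts is shown because both carry a direct repeat of the kind that retinoic acid receptors bind. A script searched the RefSeq promoter windows of GRCm38 (250 bases before to 50 after each start) on both strands for any 2 of the half-sites AGGTCA or AGTTCA or GGGTCA or GGTTCA in the same direction, spaced by 5 or by 2 bases. The repeat spaced by 5 was found in 32 of 32851 windows (0.0974%), or 31 of 27025 genes (0.115%). Of the 8 members with a window 2, Cyp26a1 and Rarb, held 1 each. These 2 promoters were picked for the search beforehand as those of known responsive genes, so the shares are background and no result about the members. The repeat spaced by 2 was found in 88 windows (0.268%) and in none of the members' windows. Below are 90 bases of each, from 100 to 11 bases before the start, for Cyp26a1 on the plus strand at chr19:37697708-37697797 and for Rarb on the minus strand at chr14:16575487-16575576, with the repeat and its spacer in capitals:
Cyp26a1: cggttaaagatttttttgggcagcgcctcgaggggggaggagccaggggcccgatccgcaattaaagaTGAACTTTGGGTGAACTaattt
Rarb: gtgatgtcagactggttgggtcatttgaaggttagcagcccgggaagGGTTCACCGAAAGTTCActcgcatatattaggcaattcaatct

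The repeat lay 32 to 16 bases before the start of Cyp26a1, where it reads on the strand opposite to the gene, and 53 to 37 bases before the start of Rarb, where it reads along the gene. A match is a string of letters and not a measured site, and no binding was measured here. The Rarb start used here lies inside the annotated gene, whose longest form begins further upstream.

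Cyp26a1 (chr19:37697798-37701536) encodes the main retinoic acid hydroxylase of the liver. It was at 10.1 FPKM (CD), 13.4 (CD+7KC), 6.16 (WD) and 4.11 (WD+7KC), an estimated 175, 234, 92.1 and 79.3 reads. Its range of 3.25-fold was the widest of the 9 genes, and both WD libraries lay below both CD libraries. WD was lower than CD, with a log2 fold change of -0.70 (-1.09 to -0.34), and WD+7KC was lower than CD+7KC, at -1.68 (-2.09 to -1.33), or -1.47 with equal sums (-1.88 to -1.12).

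The difference that went with 7KC had opposite signs in CD and WD. In CD it was 0.40 (0.12 to 0.70) and in WD it was -0.57 (-1.04 to -0.13). With equal sums the second was -0.36 and its interval, -0.82 to 0.08, included no difference. Whether these effects differ between diets could not be tested with 1 library per group.

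**Figure D3:**
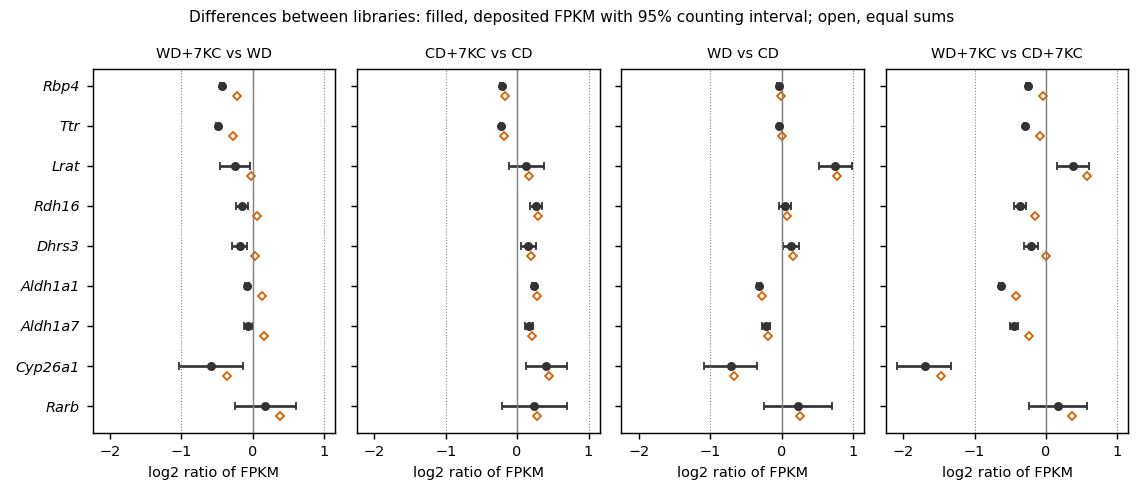
Log2 fold change (horizontal axis) of each gene in the 4 comparisons, 1 panel each, as filled points with 95% counting intervals from the FPKM as deposited, and as open diamonds after rescaling to equal sums. Dotted lines mark -1 and 1, and only Cyp26a1 in the comparison of WD+7KC with CD+7KC lies beyond them, at -1.68.

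Rarb (chr14:16430839-16819156) encodes retinoic acid receptor beta, whose own transcription is known to be induced by retinoic acid. It was at 2.46 FPKM (CD), 2.91 (CD+7KC), 2.89 (WD) and 3.27 (WD+7KC), an estimated 78.4 to 115 reads. The levels lay close together, and the counting interval included no difference in each of the 4 comparisons. For WD+7KC compared to CD+7KC, where Cyp26a1 was lowest against its partner, Rarb differed by 0.16 (-0.24 to 0.58). Differences inside such intervals were not detectable at this depth.

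Taking the members in order of level across the libraries, 7 of 27 pairs of neighbouring libraries on the deposited scale did not differ beyond counting error. These were the 3 of Rarb, 2 of Dhrs3 (WD+7KC and CD, WD and CD+7KC), 1 of Lrat (CD and CD+7KC) and 1 of Rdh16 (CD and WD). The remaining 20 differed beyond counting error.

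Cyp26a1 was the one member that spanned more than 1 on the log2 scale over the 4 libraries (1.68). Of the 10686 genes whose mean FPKM reached 1, the 2 whose pattern was most like it were Tmie and Hal, with a root mean square difference of 0.046 and 0.048 in centred log2 levels over the 4 libraries. Tmie, known from the hair cells of the inner ear, was at 10.3, 13.2, 6.05 and 4.37 FPKM in the order CD, CD+7KC, WD, WD+7KC. Hal, which encodes histidine ammonia-lyase and is also a periportal hepatocyte marker, was at 70.4 FPKM (CD), 93.6 (CD+7KC), 42.1 (WD) and 31.0 (WD+7KC). Over only 4 libraries such likeness is common, and 51 genes lay within 0.2 of Cyp26a1.

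Its relative Cyp26b1, which hydroxylates retinoic acid too and is known from non-parenchymal cells, was highest in the library where Cyp26a1 was lowest. Cyp26b1 was at 1.29 FPKM (CD), 2.01 (CD+7KC), 2.02 (WD) and 6.22 (WD+7KC). It was past the fold for WD+7KC compared to WD (log2 fold change 1.58, 1.26 to 2.01) and for WD+7KC compared to CD+7KC (1.58, 1.28 to 1.99). The ratio of Cyp26a1 to Cyp26b1 was 7.81 (CD, interval 5.75 to 10.7), 6.65 (CD+7KC, 5.19 to 8.60), 3.06 (WD, 2.23 to 4.20) and 0.662 (WD+7KC, 0.510 to 0.850). In WD+7KC alone Cyp26b1 was thus the more abundant of the pair, and since both genes are read in the same library this ratio does not move with the scaling. The sum of both was less spread, at 11.4, 15.4, 8.18 and 10.3 FPKM. The macrophage and sinusoidal endothelial markers were highest in the same library, as given above, and their part in the Cyp26b1 level was not tested.

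**Figure D4:**
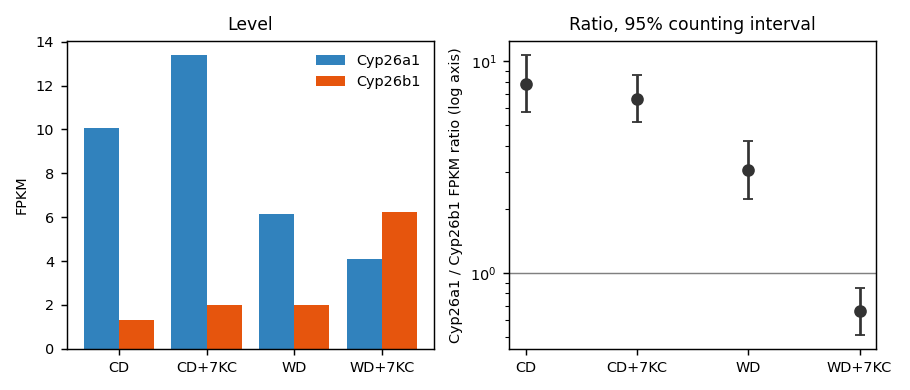
Left, FPKM (vertical axis, from 0) of Cyp26a1 and Cyp26b1 in the 4 libraries. Right, their ratio on a log axis with 95% counting intervals, and a line at 1. The ratio is above 1 in the CD, CD+7KC and WD libraries and is 0.662 in WD+7KC.

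A wider list of 50 retinoid genes outside the 9, of which 49 were listed, gave the surroundings. Counting genes of at least 1 FPKM, 1 of 37 was past the fold for WD+7KC compared to WD, 1 of 39 for CD+7KC compared to CD, 2 of 37 for WD compared to CD and 7 of 39 for WD+7KC compared to CD+7KC. Counting every gene above 0 FPKM, these were 4 of 47, 3 of 46, 4 of 46 and 11 of 47. The medians of the genes above 0 FPKM were -0.17, 0.02, 0.19 and -0.15, and with equal sums 0.04, 0.06, 0.22 and 0.06, so that both comparisons with WD+7KC changed sign. Equal sums raised the medians over all genes of at least 1 FPKM as well, to 0.19, 0.03, 0.03 and 0.19. For WD+7KC compared to CD+7KC the share was 17.9% at 1 FPKM or more, beside 9.37% over all genes. Above 0 FPKM it was 23.4%, beside 12.6%. These shares describe 2 libraries only, and the list was chosen with earlier results of these data known. The 7 of 39 include Rbp7, whose counting interval there included no difference (-4.85 to 1.15). Rbp7 is also the 1 of 39 for CD+7KC compared to CD.

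Among the genes of uptake and binding, Rbp7, a cellular retinol-binding protein, was listed at 0 in CD and was at 1.17, 0.819 and 0.425 FPKM in the others, too low to rank. Fabp5, a fatty acid binding protein that can also carry retinoic acid, was at 22.0, 15.3, 31.5 and 36.1 FPKM in the order CD, CD+7KC, WD, WD+7KC, and WD+7KC was higher than CD+7KC by 1.23 (0.95 to 1.54). Stra6l, which encodes the liver receptor for retinol-binding protein, was at 33.2 to 36.5 FPKM in all 4 libraries, and Stra6, the receptor of other tissues, was at 0.032 FPKM in WD+7KC and listed at 0 in the rest.

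In storage and hydrolysis Lpl, lipoprotein lipase, was at 22.3, 14.7, 30.6 and 34.6 FPKM and was past the fold for WD+7KC compared to CD+7KC, at 1.23 (1.10 to 1.37). Ces1d, a carboxylesterase able to hydrolyse retinyl esters, was at 541, 554, 442 and 309.6 FPKM. In oxidation, Bco1, which cleaves beta-carotene to retinal, was at 1.41 FPKM (CD), 1.58 (CD+7KC), 3.13 (WD) and 5.23 (WD+7KC). It was past the fold for WD compared to CD (1.10, 0.52 to 1.80) and for WD+7KC compared to CD+7KC (1.67, 1.2 to 2.29). Aox3, an aldehyde oxidase, was at 117, 82.4, 58.6 and 33.2 FPKM, lowest in WD+7KC as Cyp26a1 was, and lower there than in CD+7KC, at -1.31 (-1.39 to -1.23). Adh1, the abundant alcohol dehydrogenase, was at 1816 to 2478 FPKM.

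Among the receptors Rarg, the gamma form of the retinoic acid receptor, was at 1.23, 1.94, 2.10 and 3.78 FPKM, and Rara was at 5.81 to 6.38. Rxra, the common partner of these receptors in hepatocytes, was at 74.2 to 84.1 FPKM. None of the 5 receptor genes outside Rarb was past the fold in any comparison, although with equal sums Rarg was, at 1.03 for WD+7KC compared to WD and 1.13 for WD+7KC compared to CD+7KC. Tgm2, transglutaminase 2, long known as a retinoic acid target, was at 56.4 FPKM (CD), 65.4 (CD+7KC), 78.9 (WD) and 122 (WD+7KC). Both WD libraries lay above both CD libraries, where Cyp26a1 had them below. It was not past the fold in any comparison, the widest being 0.89 (0.82 to 0.96) for WD+7KC compared to CD+7KC, or 1.10 with equal sums. Known retinoic acid targets thus lay in different directions in WD+7KC compared to CD+7KC, with Cyp26a1 at -1.68, Dhrs3 at -0.21 (0.00 with equal sums), Rarb at 0.16, Lrat at 0.37 and Tgm2 at 0.89.

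**Figure D5:**
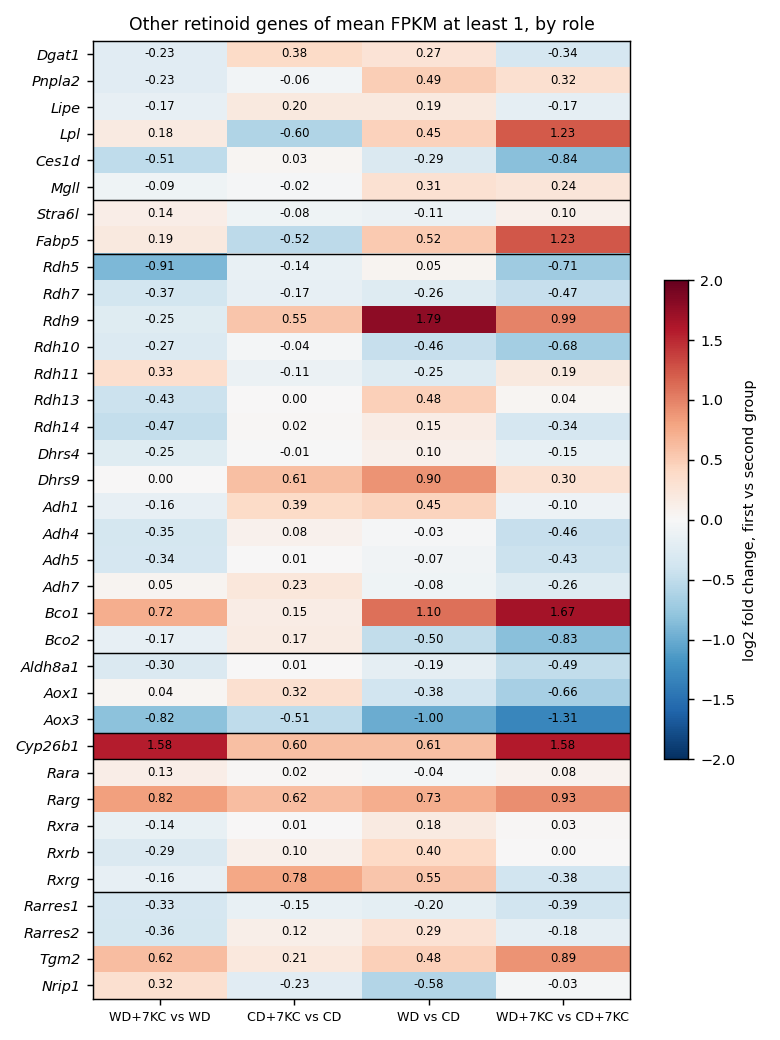
Log2 fold change, as colour and printed value, of 36 other retinoid genes whose mean FPKM reached 1 (rows, grouped by role and divided by black lines) in the 4 comparisons (columns). Cyp26b1 is at 1.58 in both comparisons that set WD+7KC against another library, Rdh9 is at 1.79 for WD compared to CD, and Aox3 is below 0 in all 4 columns.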

How the data were processed

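Total RNA of ob/ob liver was made into stranded mRNA libraries and read as 75-base single ends. The authors mapped the reads to mm10 with TopHat 2.0.13, Bowtie2 2.2.3 and SAMtools 0.1.19 and deposited FPKM per gene symbol from Cufflinks 2.2.1. The annotation and the Cufflinks options are not given in the sources used here. From the deposited FPKM, log2 fold changes of FPKM + 0.1 were computed (Python 3.11.15 with scipy 1.17.1, pandas 2.3.3 and numpy 2.4.6). No read counts were used, and the depth was estimated from the low values of genes that have 1 RefSeq mRNA, of which 70.9% to 72.1% lay within 0.1 of a whole read. Reads per gene took the longest RefSeq mRNA less 200 bases. The calculation was tested on simulated data.

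Named genes were the 9 members, the other retinoid genes past the fold at 1 FPKM or more, up to 6 per comparison by size, and the 2 genes most like a member that spanned more than 1 on the log2 scale. Other genes (Ces1d, Stra6, Stra6l, Adh1, Rara, Rarg, Rxra, Tgm2, Vipr1, Reln, Gfap, Dcn, Des, Alb, Apoa1, Cyp2e1 and the fat cell markers) were named after their values were seen, for their role or their size. The members and the lists were chosen with earlier results of these data known. Of the wider list, 1 gene is counted but not reported here. Coordinates are from GENCODE M21 (GRCm38).

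Alternatives were pseudocounts of 1 and 0.01, a filter of 1 FPKM, equal sums (TPM), median-ratio scaling, equal sums without the 20 most abundant genes, and thresholds of 0.5 and 2.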

Additional observations from a re-analysis of the deposited data

Results flagged for a closer look

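In 5 genes the difference that went with 7KC had opposite signs in the CD and WD libraries, with counting intervals on opposite sides of 0. The log2 fold change was 0.40 in CD and -0.57 in WD for Cyp26a1, 0.16 and -0.18 for Dhrs3, 0.24 and -0.080 for Aldh1a1, 0.16 and -0.060 for Aldh1a7, and 0.26 and -0.15 for Rdh16. With 1 library per group the difference between the diets was not tested. With equal sums the value in WD turned positive for Dhrs3 (0.04), Aldh1a1 (0.14), Aldh1a7 (0.16) and Rdh16 (0.07), whereas that of Cyp26a1 stayed negative at -0.36 with an interval that included 0.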

How the results depend on the processing

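Each group is 1 library, and leaving out a library was not possible. No paired analysis was possible because each group holds a single library and no result comes from a test. The filter of 1 FPKM changes no fold change of a single gene, so it was applied to counts only.

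For the 9 members, a threshold of 0.5 gave 1 past the fold for WD+7KC compared to WD, 2 for WD compared to CD and 2 for WD+7KC compared to CD+7KC, and a threshold of 2 gave 0 for the last, where a threshold of 1 gave 1. For the other retinoid genes the counts were 4 for WD+7KC compared to WD, 3 for CD+7KC compared to CD, 4 for WD compared to CD and 11 for WD+7KC compared to CD+7KC. In that order they became 1, 1, 1 and 5 with a pseudocount of 1, 7, 4, 8 and 15 with 0.01, 1, 1, 2 and 7 with the filter of 1 FPKM, 14, 15, 16 and 22 with a threshold of 0.5, and 0, 1, 1 and 0 with a threshold of 2. Over all genes the counts were 1418, 1059, 1511 and 2007, and they became 189, 113, 287 and 541 with a pseudocount of 1, 2830, 2380, 2929 and 3582 with 0.01, 521, 287, 602 and 1043 with the filter, 4012, 3394, 4724 and 5482 with a threshold of 0.5, and 190, 165, 262 and 313 with a threshold of 2. These changes follow from the construction of each alternative, since low values and small differences enter or leave.

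All 36 log2 fold changes of the members (9 genes, 4 comparisons) stayed within their counting intervals with pseudocounts of 1 and 0.01 and with median-ratio scaling. With equal sums 19 of 36 moved beyond the interval, and without the 20 most abundant genes 16 of 36. With equal sums 1374 genes were higher and 348 lower past the fold for WD+7KC compared to WD, against 978 and 440 as deposited, and 1755 and 584 for WD+7KC compared to CD+7KC, against 1274 and 733.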
